A study of Oryza sativa with 4 samples.

Results

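The transcripts described here were lower in rice leaves after 2 days without water and higher after 3 days. They were selected on their measured values: in CPM, the read count of a transcript scaled to the total of its library, the 2 d level was at least 2-fold below the well-watered level and the 3 d level at least 2 times that level, with reads above 0 in all 4 libraries and at least 20 reads in total. Of the 44553 sequences in the gene table, 36040 met the read filter, and 94 of these, from 91 loci, had the pattern. The selection used the control, 2 d and 3 d libraries, so the values in those 3 libraries are given as a description and without a test.

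The plants were wild-type rice of the cultivar labelled Illmi (spelled Ilmi in the study's methods), 5 weeks old, raised in soil in a greenhouse. The 4 groups were a well-watered control (C) and leaves taken after 1, 2 or 3 days without water. By the study's methods, the C leaves were collected before watering stopped. Days without water therefore cannot be told apart from plant age or day of harvest. Each group was 1 strand-specific RNA-seq library, made from pooled leaves of several plants, so there was no replicate and no p-value was computed. Ranges in parentheses after a log2 ratio are the exact (Clopper-Pearson) 95% interval from the 2 read counts behind it, called the counting interval, which covers counting error only and not the spread between plants or libraries.

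Leaves that lose water close their stomata, stop growing and shift their gene expression in waves, with an early hormone-driven phase, protective proteins such as dehydrins, and a decline of photosynthesis genes. Chaperones, redox proteins and cell wall or defence enzymes are also known to respond to water deficit.

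The libraries held 52626188 to 60322263 reads on gene sequences, and between 39743 and 40021 of the sequences had reads. The dehydrin Dip1 (Os02t0669100-01) had 2832 reads in C, 4810 at 1 d, 255513 at 2 d and 237663 at 3 d, so the 2 d and 3 d libraries both carried a strong drought marker. RbcS1 (Os12t0274700-01), a small subunit of the carbon-fixing enzyme RuBisCO, had 82272, 67264, 10316 and 768 reads in the same order. The 63 sequences on the list of leaf markers summed to 32930 CPM in C, 33200 at 1 d, 6880 at 2 d and 2451 at 3 d, and none of them was at 0. The seed list summed to between 401.4 and 554.7 CPM, the pollen list to between 1566 and 2909 and the root list to between 64.38 and 96.47, with 32 of 98, 9 of 81 and 5 of 8 sequences at 0 in every library. The part of these shifts in the pattern was not tested, and fewer cells of a type cannot be told apart from less RNA per cell.

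Among the 36040 transcripts, 34.0% were at least 2-fold lower at 2 d and 19.8% at least 2-fold higher at 3 d, and 0.261% met both, which is the selection itself. The opposite pattern, at least 2-fold higher at 2 d and at least 2-fold lower at 3 d, was met by 162 transcripts or 0.45%. Of the 12259 transcripts that were lower at 2 d, 11212 (91.5%) were also at least 2-fold lower at 3 d, and of the 7123 that were higher at 3 d, 5383 (75.6%) were already at least 2-fold higher at 2 d. The median log2 ratio over all kept transcripts was -0.38 at 2 d and -0.88 at 3 d.

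**Figure D1:**
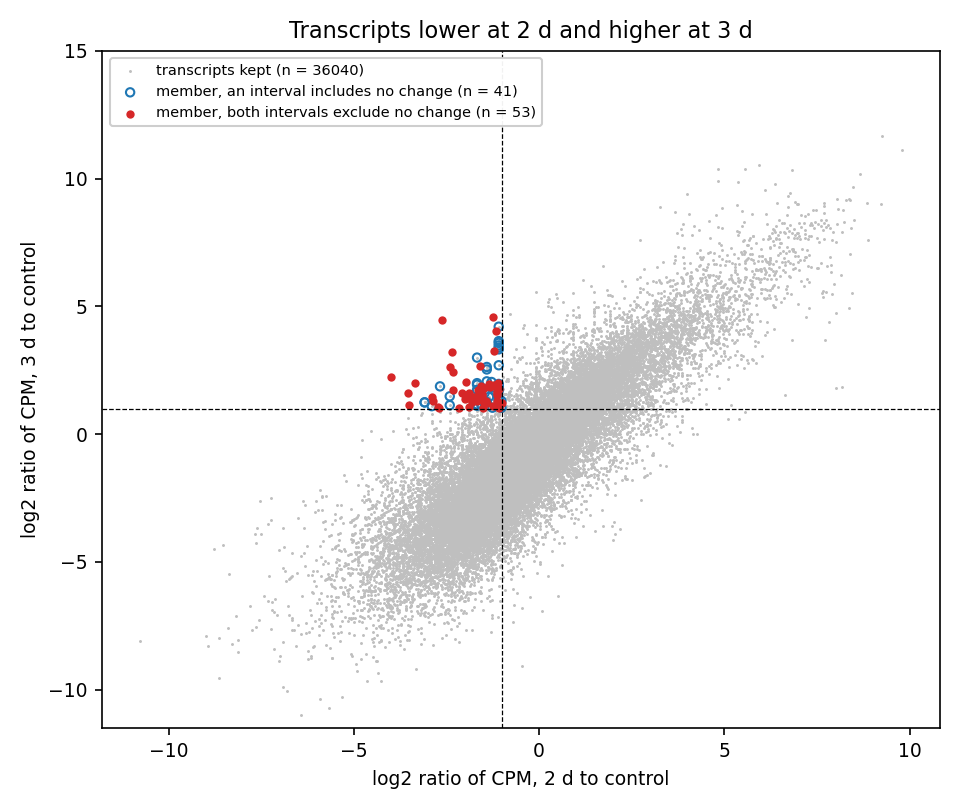
Log2 ratio of CPM to the control at 2 d (x axis) and 3 d (y axis) for the 36040 kept transcripts (gray) and the 94 members (red, both counting intervals exclude no change; blue, at least 1 does not); dashed lines mark the 2-fold thresholds. Most transcripts lie along the diagonal, and the members fill the sparse upper left corner.

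Many of the members had few reads. Their median was 97.5 reads over the 4 libraries, from 20 to 40306, against 1851 for all kept transcripts, and 48 of the 94 had fewer than 100 reads. Both the 2 d and the 3 d counting interval excluded no change in 53 members, of which 42 were among the 46 with at least 100 reads. In 15 members both intervals lay wholly past 2-fold. Together the members took 452 CPM of the control library, 558 at 1 d, 147 at 2 d and 1719 at 3 d, and the 3 with the most reads held 57.3% of all member reads. Without those 3 the sums were 221, 213, 73.0 and 717 CPM. For any set of members the selection fixes 2 d below C and 3 d above C. It does not fix the place of 1 d, which lay above C with those 3 and below C without them.

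The depth of the dip and the height of the later level varied. The log2 ratio at 2 d reached down to -4.00 from the threshold, with a median of -1.52, and 22 members were at least 4-fold lower. At 3 d it ran from 1.01 to 4.58 with a median of 1.60, and 23 members were at least 4-fold higher, 11 at least 8-fold and 4 at least 16-fold. From 2 d to 3 d the median log2 ratio was 3.33 and the highest 7.09.

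The transcripts nearest to the thresholds show how fine the boundary was. Just inside at 2 d was the conserved hypothetical protein Os02t0227100-01 with 222 reads in C and 118 at 2 d, and just outside was Os12t0121200-01, with a log2 ratio of -0.98. The VQ domain protein Os11t0131100-00, with 760, 561, 425 and 2242 reads in C, 1 d, 2 d and 3 d, also missed the 2 d threshold at -0.93. On the 3 d side, Os11t0152400-02 was just inside at 1.01 and the FYVE-type zinc finger protein Os04t0583700-00 just outside at 0.96.

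The choice of scaling moved that boundary. Scaling by the library total was kept as in the selection rule. Scaling factors that assume most transcripts are level raised the median 3 d ratio by 0.72 (edgeR TMM) or 0.86 (DESeq2 median of ratios) on the log2 scale, and the 2 d ratio by 0.33 or 0.36. Such shifts are too small to turn the direction of transcripts selected at these thresholds, and 60 and 57 of the 94 remained past both. Under both of these, under no scaling and under the library total, 57 members passed, and the 15 with both intervals past 2-fold were among those that passed each time.

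The 2 members with the most reads were sequences of proteins that chloroplast DNA normally encodes, and they lie next to each other in the order of the gene table. Os04t0473025-00 is annotated as subunit 2 of the NADH-plastoquinone oxidoreductase, a thylakoid complex of cyclic electron flow. It had 7213 reads in C, 8756 at 1 d, 2617 at 2 d and 21720 at 3 d. The log2 ratio was -1.55 at 2 d (counting interval -1.62 to -1.49) and 1.59 at 3 d (1.55 to 1.62). Os04t0473150-00 is annotated as photosystem II protein D1, the reaction center protein that is replaced continuously in the light. Its reads were 5032, 6535, 1700 and 16674, with a log2 ratio of -1.65 at 2 d and 1.72 at 3 d. In both, 2 d was the lowest and 3 d the highest of the 4 libraries.

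Other sequences of this type were also below the control at 2 d. The 11 such sequences with at least 100 reads that were not members were chosen by annotation after the members had been seen. All 11 were below the control at 2 d and 8 at least 2-fold, beside 34.0% of all kept transcripts. That 34.0% was not limited to transcripts with at least 100 reads, and no share below the control was computed. The 11 are not separate genes by annotation. Os01t0791033-00, Os05t0427800-00, Os10t0356000-00 and Os12t0207600-00 are annotated as the RuBisCO large subunit. Os10t0355800-00 and Os12t0207500-00 are annotated as ATP synthase beta subunits. Whether such entries share reads was not tested. At 3 d, 2 of the 11 were above the control and 0 at least 2-fold. For the 8 that were at least 2-fold lower at 2 d, the selection fixes this 0, as they would otherwise be members. The cytochrome b559 subunits alpha (Os03t0659233-00) and beta (Os03t0659266-00), also parts of photosystem II, came closest to the 3 d ratio of the members. The alpha sequence had 819, 787, 213 and 1166 reads in C, 1 d, 2 d and 3 d, and a log2 ratio of 0.50 at 3 d (0.37 to 0.64). The RuBisCO large subunit sequence Os10t0356000-00 had 11499, 10845, 3172 and 6112 reads, so it was higher at 3 d than at 2 d yet stayed at -0.92 relative to C. A copy of a chloroplast gene in the nuclear genome and the chloroplast's own RNA cannot be told apart in these counts.

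**Figure D2:**
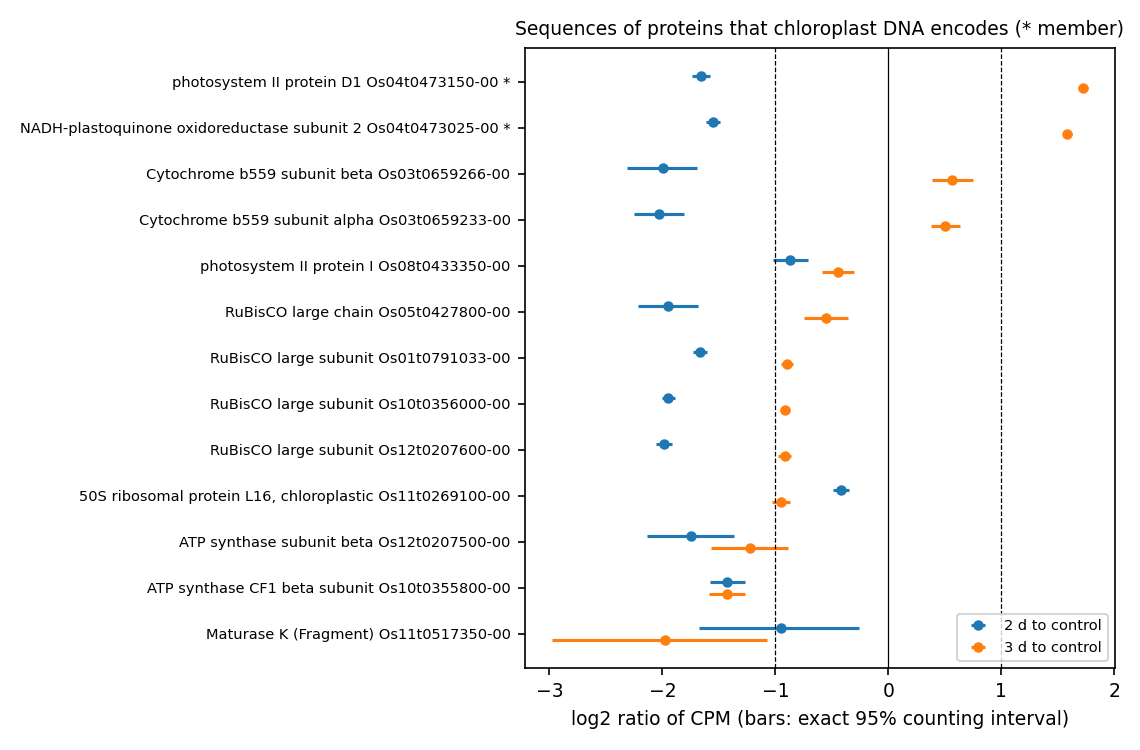
Log2 ratio of CPM to the control at 2 d (blue) and 3 d (orange) for the 13 sequences of proteins that chloroplast DNA encodes with at least 100 reads; bars are exact 95% counting intervals, dashed lines the 2-fold thresholds, and an asterisk marks the 2 members. All 13 lie left of 0 at 2 d, and the 2 members alone lie right of 1 at 3 d. Some of the 13 carry the same annotation, so they are not all separate genes. For sequences past the 2 d threshold, the selection fixes that difference at 3 d.

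Chaperone, redox and sulfur metabolism members included the widest swing of all. The groups by role used from here on were made from the annotation after the members had been seen. They hold members only, so their sizes have no share over all kept transcripts beside them. Os04t0675400-01 is annotated as a chaperone protein dnaJ, a partner that delivers unfolded proteins to Hsp70 and stimulates its ATPase. It had 837 reads in C, 2838 at 1 d, 145 at 2 d and 18630 at 3 d, that is 14.8, 53.9, 2.40 and 327 CPM. The level was 6.14-fold lower at 2 d and 22.2-fold higher at 3 d than in C, and 136-fold apart between 2 d and 3 d. On the log2 scale the ratio to C was -2.62 (-2.88 to -2.36) and 4.47 (4.37 to 4.57). It was also the only member with at least 100 reads that was at least 2-fold higher at 1 d, at a log2 ratio of 1.87 (1.76 to 1.98), so its level alternated between high and low from day to day.

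Os03t0196600-01 is annotated as a satase isoform II, where satase is the short name of serine acetyltransferase, which makes the precursor of cysteine. It had 291, 495, 27 and 646 reads in C, 1 d, 2 d and 3 d. The 2 d level was 11.5-fold lower, a log2 ratio of -3.52 (-4.14 to -2.95), and the 3 d ratio was 1.15 (0.94 to 1.35). The chloroplastic glutaredoxin-C4 (Os02t0618100-01), a small thiol oxidoreductase that uses glutathione, had 720, 827, 347 and 2315 reads and log2 ratios of -1.14 and 1.68. The prefoldin domain transcript Os05t0122600-01 had 21, 14, 3 and 57 reads. All 4 members of the group had both counting intervals on the stated side of no change.

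Defence and cell wall members numbered 8 by role. By words in the annotation, the defence list held 4 members of 617 kept transcripts (0.648%) and the cell wall list 0 of 198, beside 0.261% of all. Os04t0493400-01 is annotated as a chitinase, an enzyme that cuts the chitin of fungal walls. It had 76 reads in C, 40 at 1 d, 34 at 2 d and 1822 at 3 d. The 3 d log2 ratio of 4.58 (4.25 to 4.93), or 23.9-fold, was the highest of all members, while the 2 d ratio of -1.25 (-1.88 to -0.65) was shallow. A beta-1,3-glucanase precursor (Os01t0944700-01), which cuts callose and fungal glucans, had 79, 51, 36 and 748 reads and a 3 d ratio of 3.24 (2.90 to 3.59). In both enzymes the level was lowest at 2 d and the 3 d level stood far above those of the other libraries. For the chitinase, the counting interval of the 2 d to 1 d ratio included no change (-1.14 to 0.26). Os11t0181400-01, a homolog of the barley mlo gene whose loss in barley gives resistance to powdery mildew, had 56, 45, 12 and 305 reads, with -2.31 (-3.35 to -1.39) at 2 d and 2.44 (2.03 to 2.88) at 3 d. Of the 8 members in this group, 4 had both intervals excluding no change and the others had few reads, such as the beta glucanase precursor Os01t0942300-01 with 2, 8, 1 and 13.

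**Figure D3:**
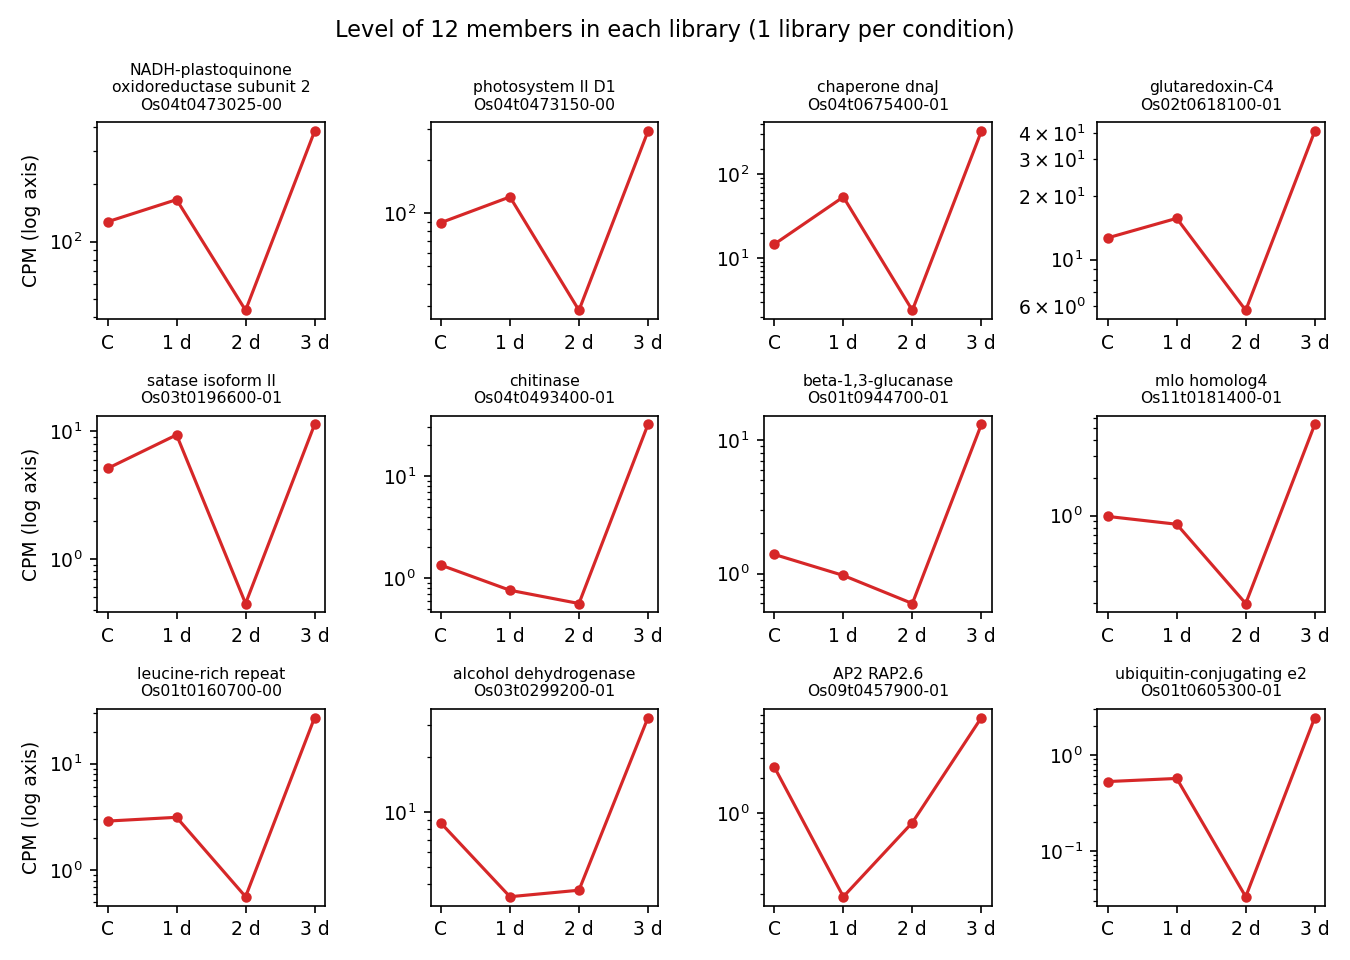
CPM in each library (log axis, separate scale per panel) for 12 members picked to represent the roles in the text; each point is 1 library, so there are no error bars. In 10 of them the lowest point is 2 d, though for the chitinase the 2 d to 1 d counting interval includes no change. In the AP2 RAP2.6 protein and the alcohol dehydrogenase the lowest point is 1 d. For the alcohol dehydrogenase the 2 d to 1 d counting interval includes no change as well.

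Receptors, kinases and a phosphatase made up 11 members, of which 4 had both intervals excluding no change. The leucine-rich repeat protein Os01t0160700-00, of the type of repeat that binds ligands in plant receptors, had 164, 165, 34 and 1538 reads in C, 1 d, 2 d and 3 d. Its log2 ratio was -2.36 (-2.94 to -1.82) at 2 d and 3.22 (2.99 to 3.47) at 3 d. The protein with a concanavalin A-like lectin domain, Os02t0712700-01, had 383, 296, 186 and 1162 reads. Os04t0584300-01 is annotated as a protein phosphatase type 2C, a family whose clade A switches off abscisic acid signaling. It had 26, 34, 7 and 108 reads and ratios of -1.98 (-3.43 to -0.74) and 2.05 (1.42 to 2.73). Its annotation is worded in a way that the protein phosphatase 2C list did not capture, so it is not counted there.

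Transcription-related members numbered 6. At 1 d, 4 of them were at least 2-fold lower than in C, beside 17.0% of the 94 members and 3.7% of all kept transcripts. Os09t0457900-01 is annotated as the AP2 domain protein RAP2.6, an ethylene response factor type regulator that in Arabidopsis responds to jasmonate and osmotic stress. It had 142 reads in C, 10 at 1 d, 50 at 2 d and 380 at 3 d. The 1 d level was 13.2-fold lower than C, a log2 ratio of -3.72 (-4.81 to -2.80), the lowest 1 d ratio among the members, and the 2 d and 3 d ratios were -1.59 and 1.42. The VQ domain proteins, which bind WRKY factors, gave 38, 9, 15 and 94 reads at Os06t0530600-00 and 16, 3, 7 and 66 at Os08t0102900-00. The GRAS transcription factor Os04t0432100-00 had 15, 4, 7 and 49 reads. In these 4 members 1 d had the lowest level, but the counting interval of the 2 d to 1 d ratio excluded no change in RAP2.6 alone, at 2.13 (1.13 to 3.27). For the VQ proteins it was -0.75 to 1.91 at Os06t0530600-00 and -1.11 to 3.61 at Os08t0102900-00, and for the GRAS factor -1.37 to 2.83. Of the other 2 members of the group, the hypothetical conserved gene Os09t0520400-01, whose annotation includes regulation of transcription, had 3401, 3722, 982 and 9849 reads and the WRKY protein Os03t0798500-00 had 14, 13, 7 and 37.

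DNA and cell cycle members numbered 6, from 21 to 2580 reads in total. The exonuclease Os08t0236700-00 had 534, 483, 258 and 1305 reads in C, 1 d, 2 d and 3 d. A protein with a DNA repair metallo-beta-lactamase domain (Os08t0107600-01) had 19, 28, 2 and 76 reads, with -3.34 (-6.48 to -1.29) at 2 d. GINS protein PSF1 (Os05t0453900-00), part of the helicase that opens DNA at replication forks, had 11, 28, 1 and 34, and the DNA polymerase Os02t0511901-00 had 18, 26, 5 and 48. The cyclin Os07t0620800-01 had 19, 4, 8 and 69 reads and was lower at 1 d, at -2.14 (-4.15 to -0.55).

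Of the 360 transcripts that the study listed as predicted miRNA targets, 1 was a member, a share near the 0.261% of all kept transcripts. It was the cyclin, listed under mir-169f. The 2 mature sequences listed for that miRNA are shown because it is the only miRNA with a member among its listed targets. Other kinds of regulator, such as the study's lncRNAs, are not covered by that list. Capitals mark the seed, bases 2 to 8, and which of the sequences the prediction rests on was not given.
mir-169f, listed first: uGAGGACAagagcugauucgg
mir-169f, listed second: uAGCCAAGgaugacuugccua
The seeds differ, so the sequences belong to different seed groups. The precursor of mir-169f had 0 reads in C, 1 at 1 d, 7 at 2 d and 32 at 3 d in the noncoding RNA table. The cyclin and the precursor were thus both highest at 3 d, while at 1 d and 2 d the cyclin lay below its control level.

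Metabolism and transport members numbered 10. The alcohol dehydrogenase Os03t0299200-01, of the enzymes that reduce aldehydes to alcohols, had 492 reads in C, 180 at 1 d, 224 at 2 d and 1872 at 3 d. The 1 d log2 ratio was -1.34 (-1.60 to -1.09) and the 2 d ratio -1.22 (-1.46 to -0.99), so the level was low on both days before the 3 d ratio of 1.92 (1.78 to 2.07). The chorismate synthase domain protein Os05t0137000-01, of the last step of the shikimate pathway to aromatic amino acids, had 140, 149, 71 and 284 reads and stood close to both thresholds, at -1.07 and 1.02. Os06t0341500-01, annotated with a plant lipid transfer protein/seed storage/trypsin-alpha amylase inhibitor domain, had 29, 25, 11 and 102 reads. It was the single member among the 98 sequences of the seed list, where the words seed storage in that domain name placed it.

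Other named domains held the deepest dip of all. The ubiquitin-conjugating enzyme e2 (Os01t0605300-01), which carries ubiquitin to target proteins, had 30, 30, 2 and 140 reads and the lowest 2 d ratio of all members, -4.00 (-7.11 to -2.02), on only 2 reads. The KIP1-like protein Os01t0976500-01 had 427, 371, 113 and 1108 reads, and the nodulin-like transcript Os09t0536700-02 had 1348, 997, 437 and 3660. A phosphatidylethanolamine-binding (PEBP) family protein, Os11t0152500-00, of the family that holds the flowering regulator FT, had 15, 12, 3 and 93.

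Members without a named protein numbered 34, and 2 more were noncoding. The conserved hypothetical protein Os08t0539200-01 had 74, 53, 35 and 1227 reads in C, 1 d, 2 d and 3 d, a 3 d ratio of 4.05 (3.71 to 4.41). Os01t0135600-01 had 246, 229, 36 and 605 reads and a 2 d ratio of -2.86 (-3.41 to -2.35). The noncoding transcript Os03t0120501-01 had 10, 18, 5 and 119 reads, with a 3 d ratio of 3.57 (2.64 to 4.67) and a 2 d interval that included no change (-2.99 to 0.59). Counted by annotation words instead of role, 61.7% of the members and 62.4% of the kept transcripts named a protein or domain. That count takes a clone name as a protein name, so it sorts some members otherwise than the groups by role.

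With 0.261% of all kept transcripts selected, 0 or 1 member in a list of about 100 transcripts is near the background. Among 39 lists of gene families and pathways, chosen by words in the annotation, 18 held no member, including jasmonate (0 of 66 kept transcripts), NAC (0 of 77), MYB (0 of 136), helix-loop-helix (0 of 100), bZIP (0 of 54), late embryogenesis abundant (0 of 31) and ribosomal proteins (0 of 396). The AP2/ERF and WRKY lists held 1 member each, of 110 (0.909%) and 87 (1.15%). The receptor and wall-associated kinase list held 7 of 440 (1.59%), the most members of any list of named proteins. The defence list held 4 of 617 (0.648%), beside 0.261% of all kept transcripts. Of the 7, only Os01t0160700-00 and Os02t0712700-01 had both counting intervals excluding no change, and Os02t0712700-01 is on the defence list as well. Some of the 7 are not annotated as kinases, such as the lectin precursor Os04t0173800-01 with 5, 3, 1 and 11 reads. These shares are descriptions without a test. A biological process term was attached to 29 of the 94 (30.9%), beside 31.2% of the kept transcripts. Protein phosphorylation had the most members, 5 of 1292 kept transcripts (0.387%), near the 0.261% of all. Carbohydrate metabolic process had 3 of 479 (0.626%).

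The lists behaved differently as wholes. The late embryogenesis abundant list had a median log2 ratio of 6.41 at 2 d and 6.55 at 3 d, with 1 of 31 at least 2-fold lower at 2 d (3.23%) and 24 at least 2-fold higher at 3 d (77.4%), beside 34.0% and 19.8% of all kept transcripts. The photosynthesis list had medians of -1.99 and -3.67, with 107 of 149 at least 2-fold lower at 2 d (71.8%) and 12 at least 2-fold higher at 3 d (8.05%), and its 1 member was the D1 sequence. For receptor and wall-associated kinases the medians were -0.88 and -1.43, with 211 of 440 lower at 2 d (48.0%) and 86 higher at 3 d (19.5%, near the share of all kept transcripts). The defence list had medians of -0.82 and -1.42. Of its 617 transcripts, 285 were lower at 2 d (46.2%) and 123 higher at 3 d (19.9%, also near that share).

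Some members lay in neighboring loci. In the order of the gene table, 7 pairs of adjacent loci were both members, which involved 14 of the 91 loci, and the opposite pattern had 13 pairs among 148 loci. Next to the alcohol dehydrogenase, the hypothetical protein Os03t0299400-00 had 118, 46, 49 and 466 reads, with ratios of -1.25, -1.36 and 1.98 at 1 d, 2 d and 3 d against -1.34, -1.22 and 1.92 for the enzyme. Next to the nodulin-like locus, Os09t0536800-01 had 431, 282, 133 and 1158 reads. The pair Os08t0539100-01, a DHHC-type zinc finger protein of the class that attaches palmitate to proteins, and Os08t0539200-01 differed more, at 1.45 and 4.05 at 3 d. Whether such neighbors overlap on the genome, and whether the counting used strand, was not given in the sources used here, so shared reads cannot be told apart from separate transcripts.

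Other transcripts of the same locus gave mixed results. Of 8 member loci with more than 1 transcript in the table, 3 had every transcript among the members and 5 did not. Both transcripts of Os09t0536700 had nearly the same reads, 1268, 913, 466 and 3613 for Os09t0536700-01. At Os11t0152400 the member Os11t0152400-02 had 49, 61, 8 and 99 reads, while Os11t0152400-01 had 265, 250, 49 and 119 and stayed lower at 3 d, at -1.16 (-1.48 to -0.84). The receptor-like kinase transcript Os08t0203700-02 had 19, 21, 10 and 47 reads, and Os08t0203700-01 had 121, 145, 103 and 287, with a 2 d ratio of -0.32 (-0.71 to 0.07). How reads common to transcripts of a locus were shared out was not given, so values of single transcripts are uncertain.

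The 1 d library entered the selection only through the read filter, so transcripts with 0 reads at 1 d were left out. Its ratio also shares the control with the others. At 1 d, 71 of the 94 members were within 2-fold of the control, 16 (17.0%) were at least 2-fold lower and 7 (7.45%) at least 2-fold higher, beside 3.7% and 4.2% of all kept transcripts. The counting interval excluded no change in 12 of the 16 and 3 of the 7. Among the 46 members with at least 100 reads, 7 (15.2%) were lower and 1 (2.17%) was higher, beside 2.72% and 2.67% of the 32455 kept transcripts with as many reads. The median 1 d log2 ratio of the members was -0.07 and that of all kept transcripts 0.02. The 7 were the alcohol dehydrogenase and its neighbor Os03t0299400-00, RAP2.6, the VQ protein Os06t0530600-00, the cyclin, Os07t0595750-00 with 72, 18, 17 and 148 reads, and Os03t0285200-01 with 301, 73, 135 and 656.

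**Figure D4:**
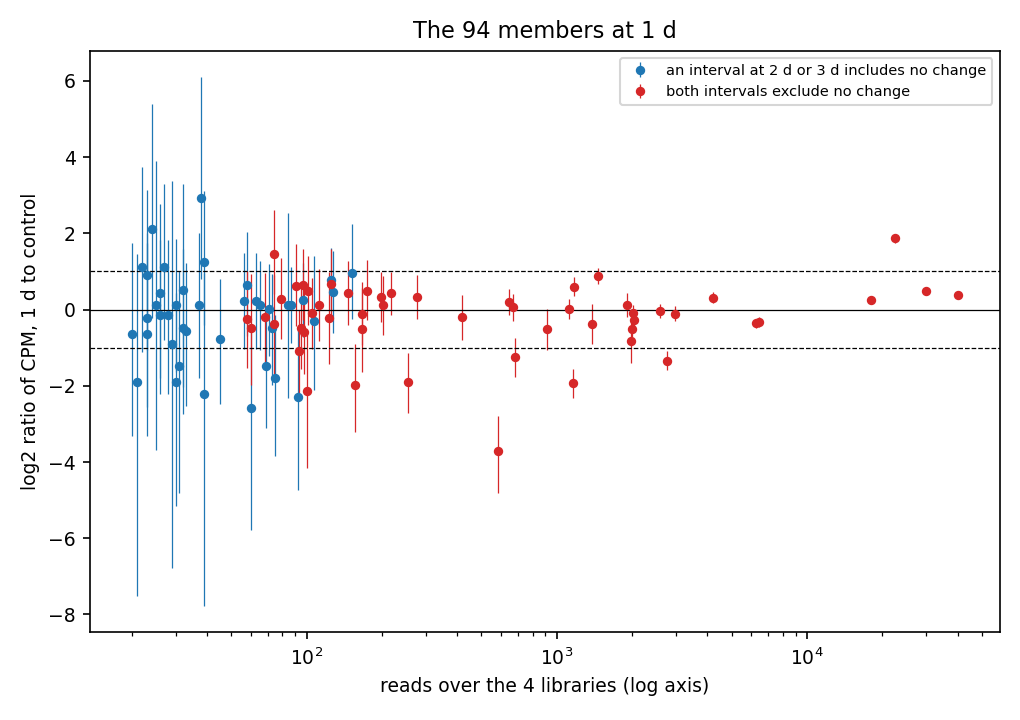
Log2 ratio of CPM at 1 d to the control (y axis) against reads over the 4 libraries (x axis, log) for the 94 members; bars are exact 95% counting intervals, red marks members with both the 2 d and 3 d interval excluding no change, and dashed lines the 2-fold thresholds. The intervals narrow with more reads; dnaJ lies at 1.87, and the alcohol dehydrogenase (-1.34), Os03t0285200-01 (-1.94), Os03t0299400-00 (-1.25) and RAP2.6 (-3.72) lie below the lower threshold.

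In 83 of the 94 members the 1 d level lay between the 2 d and the 3 d level. The selection fixes this for the 71 members within 2-fold of the control at 1 d. Measured against 1 d in place of the control, 72 members were at least 2-fold lower at 2 d and 76 at least 2-fold higher at 3 d. These counts also depend on the selection, and their shares over all kept transcripts were not computed. With the 1 d library as the reference for the whole rule, 96 transcripts met it, of which 54 were among the 94.

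**Figure D5:**
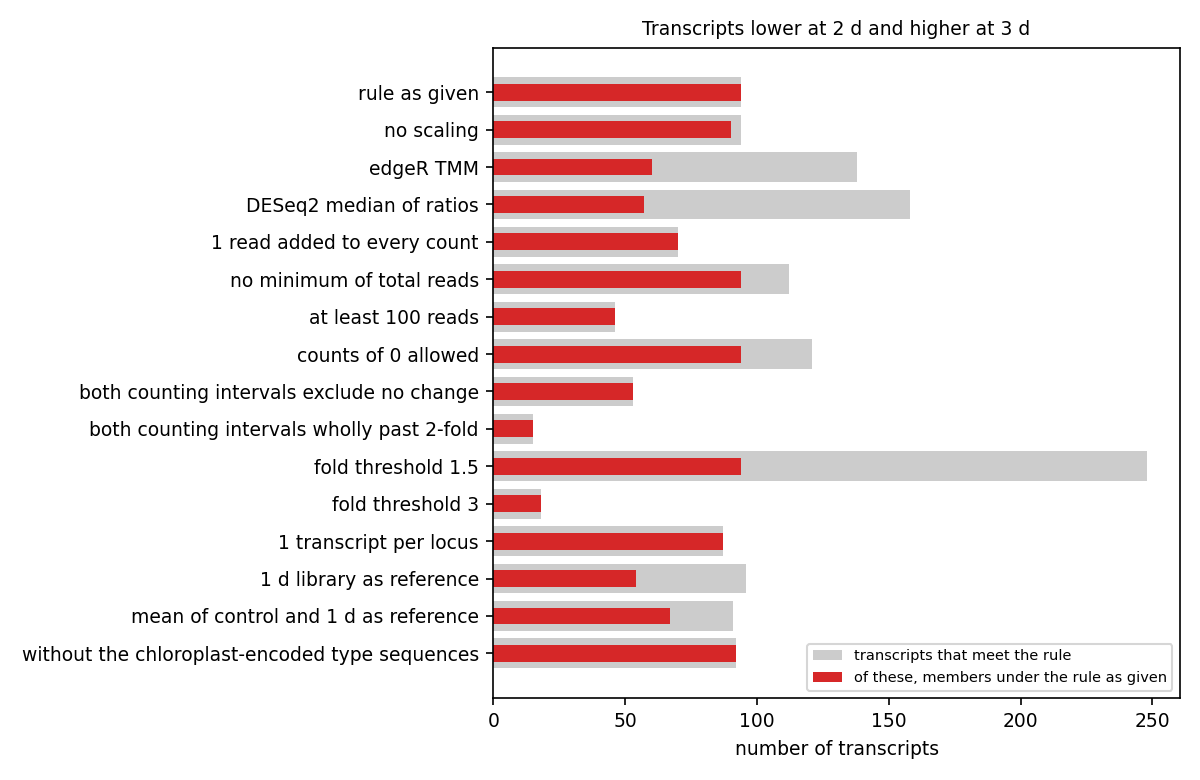
Number of transcripts that met the rule (gray bars) under each setting, and how many of them were among the 94 (red bars). The count ran from 15 with both counting intervals wholly past 2-fold to 248 with a fold threshold of 1.5.

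The members had a median sequence length of 1934 bases against 2847 for all kept transcripts, from 235 to 7729. Per kilobase, photosystem II D1 was the highest named above, with 201 CPM per kilobase in C and 663 at 3 d, followed at 3 d by dnaJ with 155 and the NADH-plastoquinone oxidoreductase subunit with 94.4. The chitinase went from 0.867 CPM per kilobase in C to 20.7 at 3 d.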

How the data were processed

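Strand-specific, single-end libraries were sequenced on an Illumina HiSeq instrument. The authors trimmed reads by quality, removed duplicates with FastUniq and mapped them with clc_ref_assemble to annotated gene sequences (RAP-DB) and noncoding RNA sequences. The submitters' processing notes name the build IRGSP-1.0. The deposited counts are reads per sequence and were used as deposited. A further 8 columns of the authors' normalized values and the columns of their log2 ratios were not used. The deposited lengths (unit: other) served as a description and per kilobase.

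CPM was the count over the sum of the gene table column, also for noncoding RNA. Transcripts needed reads above 0 in all 4 libraries and 20 in total. Intervals were computed with scipy 1.17.1 and scaling factors with edgeR 4.0.16 and DESeq2 1.42.0; neither tool was used for a test. The script was tested on simulated data. There was 1 library per group, so no test was made, and no paired analysis was made.

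The members and lists were chosen with earlier results of these data known. Named members were, with 1 transcript per locus, the 15 with most reads and the 15 with the largest 3 d to 2 d ratio (at least 100 reads) among those with a named protein and both intervals excluding no change, members of regulator and stress lists with at least 100 reads, up to 3 noncoding members, and the 3 nearest to each threshold on either side. Other members were named after their values were seen. No promoter, protein or genome sequence that pairs with the locus IDs was used here.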

Additional observations from a re-analysis of the deposited data

Results flagged for a closer look

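One sequence of the noncoding RNA table, which no comparison above used for selection, met the same rule. The signal recognition particle (SRP) 7SL RNA, part of the particle that brings secreted proteins to the endoplasmic reticulum, had 193 reads in C, 255 at 1 d, 84 at 2 d and 520 at 3 d. The log2 ratio was -1.29 (-1.68 to -0.91) at 2 d and 1.43 (1.18 to 1.67) at 3 d, above the level in the control. It was 1 of 267 noncoding sequences that passed the read filter (0.375%), a share near the 0.261% of the gene transcripts. The second SRP entry had 130, 234, 77 and 510 reads and missed the 2 d threshold at -0.84. Whether the 2 entries share reads was not tested.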

How the results depend on the processing

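With 1 library per group, no setting can show the spread between plants, and members with few reads are the least certain. No paired analysis was possible because each group had 1 library and no result came from a test. The number of members, 94, was 158 with DESeq2 factors, 46 with at least 100 reads, 53 where both counting intervals excluded no change, 15 where both lay wholly past 2-fold, 248 at a fold threshold of 1.5 and 18 at 3. It was 138 with edgeR TMM, and between 70 and 121 under the other settings. The DESeq2 and TMM sets shared 57 and 60 transcripts with the 94. Counting neighboring member loci once gave 84 and leaving out the sequences of chloroplast-encoded type gave 92; both were chosen after seeing the data. The 16 members lower at 1 d became 7 with at least 100 reads. The 7 higher at 1 d became 1 with at least 100 reads, 16 at a fold threshold of 1.5 and 3 where the counting interval excluded no change. Of 174 log2 ratios of named members under another scaling, 71 left their counting interval.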
